A study of Felis catus with 8 samples.

Results

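Cytochrome P450 enzymes of families 1 to 4 were followed in the liver of male domestic cats aged 9 months, fed 4 diets. The members are the probe sets whose array annotation names exactly 1 gene, with a symbol made of CYP, a family digit of 1, 2, 3 or 4 and a letter. The fatty acid hydroxylase gene CYP4A11 is not a member. The rule used names and no measured value. It found 331 of the 257101 probe sets on the array, for 36 genes: 3 in family 1, 17 in family 2, 4 in family 3 and 12 in family 4. Of these probe sets, 160 had a mean over the 8 arrays above the median of all probe sets (log2 2.43), a share of 48.3%, against 49.8% of all probe sets with 1 gene. These 160 gave values for 35 genes out of 17910 genes measured in all, with 1 to 12 probe sets averaged per gene. The pseudogene symbol CYP4Z2P had no probe set above that level.

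The combined diet held 8.6% trans fat, 24% high-fructose corn syrup (HFCS) and 1.125% monosodium glutamate (MSG). The trans-fat/HFCS diet held the first 2 of these additions in the same amounts, the MSG diet was chow with 1.125% MSG alone, and the control diet was standard chow. Dams ate the same diet from 3 weeks before mating through nursing, so the male cats met it before birth, through milk and after weaning. There were 2 arrays per diet, described as biological replicates. Per the labels RNA came from 4 to 5 livers of each diet, but litters and pooling are not stated, so the p-values measure the spread between arrays, whatever an array held. A human gene array (HuGene 1.0 ST) was hybridised with cat RNA.

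Cytochromes P450 are haem enzymes of the endoplasmic reticulum that insert 1 atom of oxygen into a substrate, with electrons passed on by the reductase POR. Families 1 to 3 oxidise drugs, plant compounds and hydrocarbons, and their genes are switched on by ligand-sensing factors: AHR for family 1, NR1I2 (PXR) and NR1I3 (CAR) for many genes of families 2 and 3. Family 4 hydroxylates fatty acids and eicosanoids, and several of its members are controlled in liver by the lipid sensor PPARA. In liver these enzymes lie mainly in hepatocytes, most of them in those around the central vein.

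The names on the array are human, and P450 subfamilies have expanded separately in each mammal. Of the 36 symbols, 16 stand in the cat gene table used here, which lists 26 symbols in these families. CYP1A1, CYP1A2 and CYP1B1 are shared by both. The 3 CYP2C symbols of the array (CYP2C8, CYP2C18 and CYP2C19) meet 1 cat symbol, CYP2C41. Likewise 4 CYP3A symbols meet CYP3A131 and CYP3A132, and 6 CYP4F symbols meet CYP4F140 and CYP4F22. CYP2A7 and its pseudogene CYP2A7P1 meet CYP2A13 and CYP2A25, and CYP4A22 meets CYP4A106, CYP4A37 and the pseudogene symbol CYP4A105P. For CYP4Z1 and CYP2G1P no symbol of the same subfamily stands in the cat table. Probe sets named for relatives within such a subfamily may read the same cat transcript, so their values are those of probe sets under a human name. A further 47 probe sets name a member together with another gene. They are given apart, near the end.

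The 15 hepatocyte markers were all measured, with albumin (ALB) between 9.63 and 10.06 on the log2 scale, and none passed the test with trans fat and HFCS. Of the 14 skeletal muscle markers, 11 were higher with trans fat and HFCS; the list's median difference from the control mean was 2.23 and 2.00 on its 2 arrays and between -0.03 and 0.12 on the other 6. The myosin MYH1 stood at log2 2.41 and 2.53 on the combined diet, 5.48 and 5.32 on the trans-fat/HFCS diet, 2.23 and 2.20 on the MSG diet, and 2.26 and 2.31 on the control diet. The 4 P450 calls of families 1 to 4 with trans fat and HFCS are therefore also given without these 2 arrays, the companion genes on all 8 arrays alone, and the part of the muscle genes in the P450 values was not tested further. Of the other lists, passes were limited to RHBG among 7 pericentral markers (higher), HAL among 7 periportal markers (higher), CD68 among 9 macrophage markers (higher), PDGFRB and SPARC among 10 stellate cell and matrix markers (lower) and S100A12 among 4 neutrophil markers (lower). None passed among the markers of endothelium (7), lymphocytes (6), cholangiocytes (5) and erythroid cells (2). In bulk liver, fewer cells of a type and less RNA per cell cannot be told apart. Array medians of intensity lay between 5.25 and 5.28.

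The first comparison set the 4 arrays with trans fat and HFCS (combined and trans-fat/HFCS diets) against the 4 without (MSG and control diets). CYP1A1, CYP2A7 and CYP4Z1 were higher with trans fat and HFCS, by 1.49-fold to 2.05-fold, and no member was lower. CYP2C8 also passed, 1.45-fold higher, but its call rests on a probe set that entered only through the arrays where it was high, so nothing is read from it. These are 4 of the 35 genes measured. Across all 17910 genes limma called 4.44% higher and 3.22% lower at a Benjamini-Hochberg adjusted p under 0.05. In 4 of the 35 genes all 4 arrays with trans fat and HFCS lay above all 4 without, where 8.29% of all genes did, and in 0 they all lay below, where 6.72% did; CYP2C8 is among these 4 too. At an unadjusted p under 0.05 stood 11 of the 35 members, against 24.5% of all genes. The median log2 difference of the members was 0.13, beside 0.02 for all genes, and 23 of 35 (65.7%) were positive, beside 52.3% of all genes. By family the medians were 0.38 (family 1), 0.16 (family 2), -0.12 (family 3) and 0.15 (family 4).

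**Figure D1:**
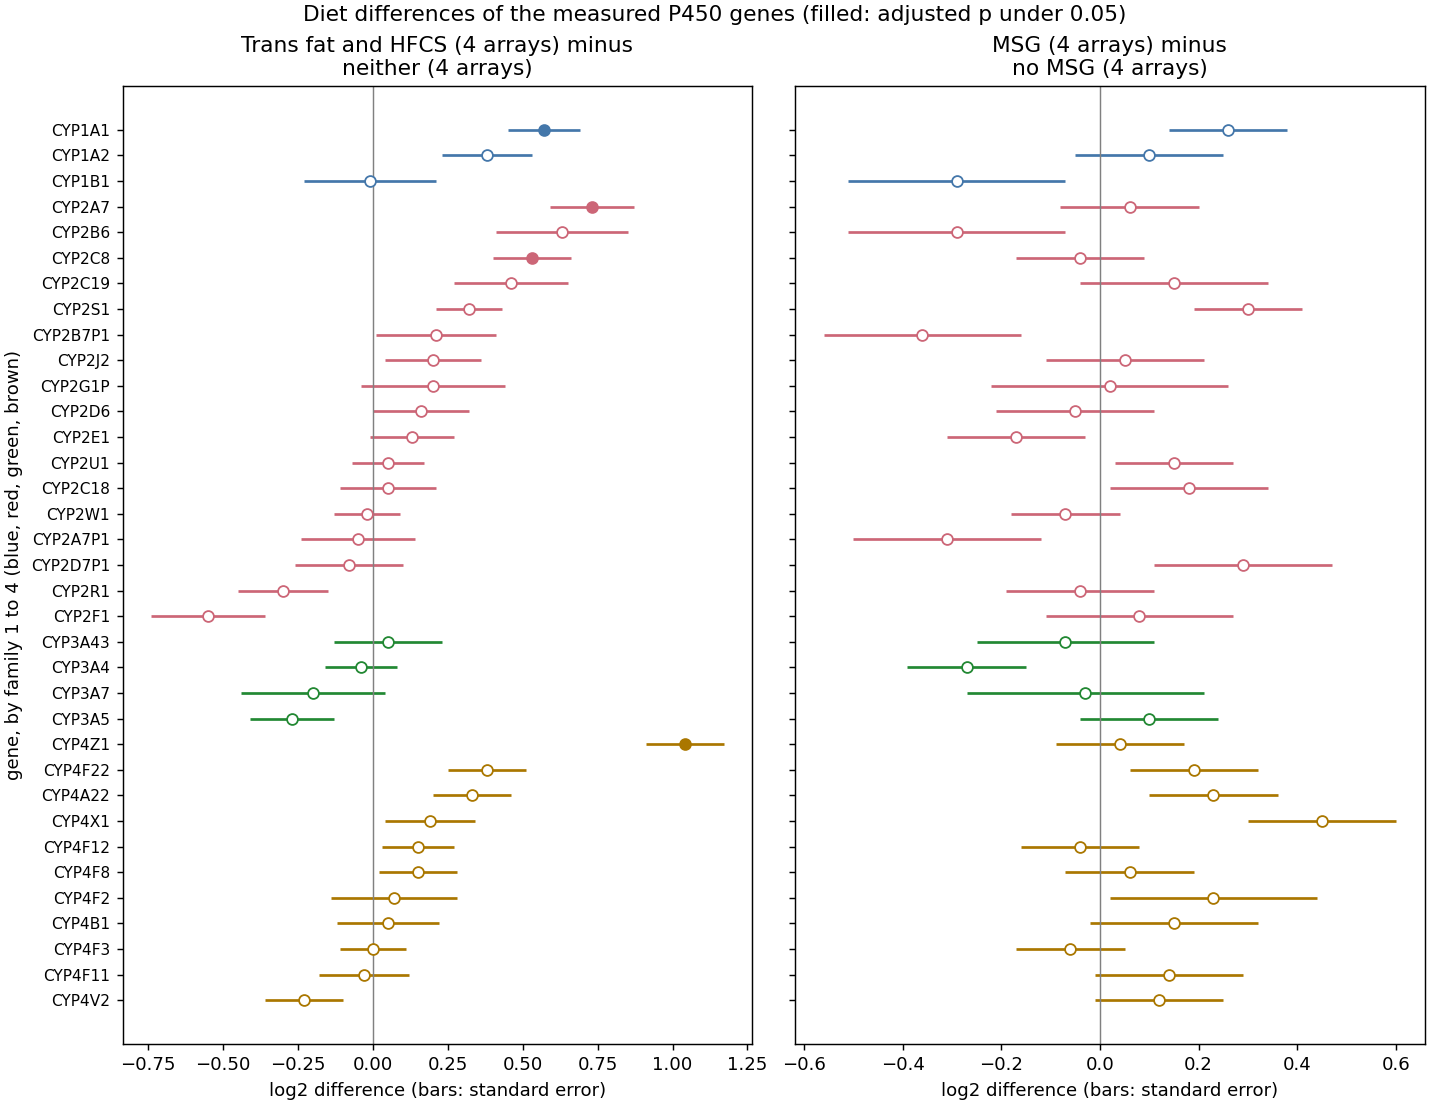
Log2 difference of each of the 35 measured P450 genes with its standard error, grouped by family; left, the 4 arrays with trans fat and HFCS minus the 4 without; right, the 4 arrays with MSG minus the 4 without. Filled points passed limma's adjusted p of 0.05: CYP1A1, CYP2A7, CYP2C8 and CYP4Z1 on the left and none on the right.

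Family 1 holds the AHR-controlled oxidases of flat aromatic compounds. CYP1A1, which oxidises polycyclic hydrocarbons, stood at log2 8.72 and 8.94 on the combined diet, 8.43 and 8.53 on the trans-fat/HFCS diet, 8.04 and 8.30 on the MSG diet, and 7.98 and 8.02 on the control diet. All 4 arrays with trans fat and HFCS lay above all 4 without, and both combined arrays lay above both trans-fat/HFCS arrays. The difference with trans fat and HFCS was 0.57 (SE 0.12), 1.49-fold higher (adjusted p = 0.0265 in limma). All 5 of its probe sets were positive, from 0.15 to 0.91, and in 4 of them the groups did not overlap. The one exception was the dimmest of the 5.

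The CYP1A1 call was lost without the filter on dim probe sets (log2 0.31, adjusted p = 0.057 in limma) and with the median of its probe sets (log2 0.65, adjusted p = 0.0672). With both trans-fat/HFCS arrays left out, the combined diet stood 0.66 above the MSG diet (adjusted p = 0.126). With 1 array left out, the gene passed without MSG replicate 2 (log2 0.64) and without combined replicate 1 (0.63), and missed the threshold without any of the other 6 (0.51 to 0.60, adjusted p = 0.0587 to 0.0947). The direction was the same in each of these fits.

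CYP1A2, the main liver enzyme of caffeine oxidation in humans, stood at log2 6.89 and 6.88 on the combined diet, 6.57 and 6.59 on the trans-fat/HFCS diet, 6.63 and 5.97 on the MSG diet, and 6.42 and 6.39 on the control diet. The combined arrays were the highest, and MSG replicate 1 lay above both trans-fat/HFCS arrays. The difference was 0.38 (SE 0.15) with an adjusted p of 0.172 in limma, above the threshold. Its 6 probe sets were all positive, from 0.02 to 0.65, and in 3 of them the 4 arrays with trans fat and HFCS lay above the other 4. CYP1B1, an oxidase of oestradiol found mostly outside the liver in humans, rested on 1 dim probe set. Its values were 2.59 and 2.83 on the combined diet, 3.63 and 3.17 on the trans-fat/HFCS diet, 3.27 and 2.97 on the MSG diet, and 3.49 and 2.51 on the control diet. The groups overlapped and the difference was -0.01 (SE 0.22).

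**Figure D2:**
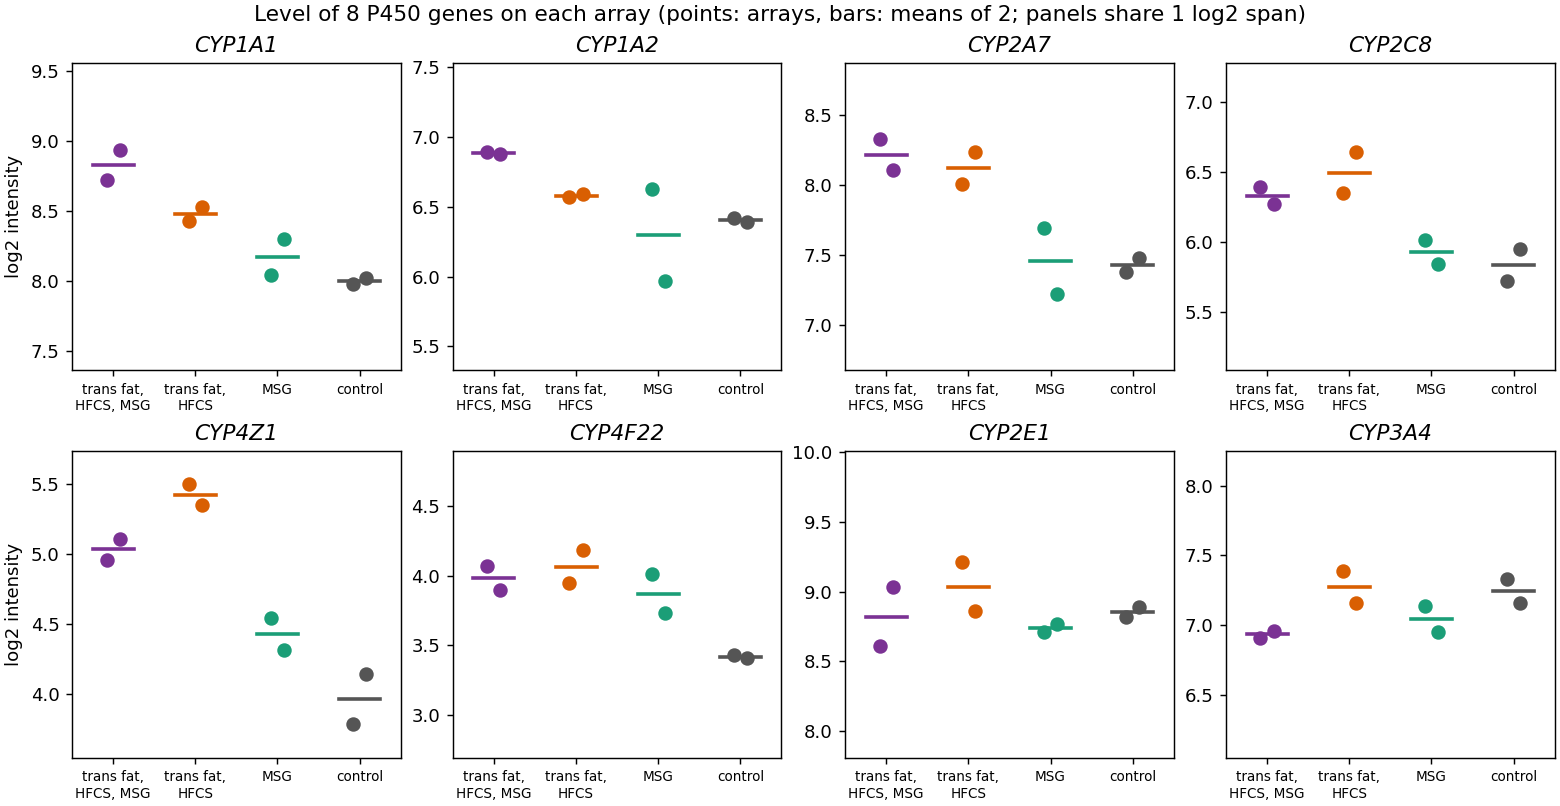
Log2 intensity of 8 P450 genes on each array by diet (points, 2 per diet) with the mean of the 2 arrays (bars); each panel spans the same log2 range but has its own position. CYP1A1, CYP2A7, CYP2C8 and CYP4Z1 lie higher on all 4 arrays with trans fat and HFCS, whereas CYP2E1 and CYP3A4 overlap between the arrays with and without trans fat and HFCS.

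Family 2 is the largest and most mixed, with drug oxidases beside enzymes of arachidonic acid and vitamin D. CYP2A7 belongs to the CYP2A subfamily, whose human enzymes oxidise coumarin and nicotine. It stood at log2 8.33 and 8.11 on the combined diet, 8.01 and 8.24 on the trans-fat/HFCS diet, 7.69 and 7.22 on the MSG diet, and 7.38 and 7.48 on the control diet. The 4 arrays with trans fat and HFCS lay above the other 4, and the diets with and without MSG differed less than their replicates. The difference was 0.73 (SE 0.14), 1.66-fold higher (adjusted p = 0.0207 in limma), and all 3 probe sets were positive (0.44 to 0.96) with no overlap between the groups.

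The CYP2A7 call was lost when only the brightest probe set was used (log2 0.44, adjusted p = 0.128 in limma) and when probe sets of several genes were added (0.50, adjusted p = 0.0524). Without both trans-fat/HFCS arrays the combined diet stood 0.76 above the MSG diet (adjusted p = 0.125). With 1 array left out, it passed without MSG replicate 1 (0.85), trans-fat/HFCS replicate 1 (0.79) or combined replicate 2 (0.78), and missed the threshold without either control array, MSG replicate 2, trans-fat/HFCS replicate 2 or combined replicate 1 (0.61 to 0.75, adjusted p = 0.0549 to 0.0768).

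CYP2C8 forms epoxides of arachidonic acid and oxidises paclitaxel in humans. Its gene value was log2 6.39 and 6.27 on the combined diet, 6.35 and 6.64 on the trans-fat/HFCS diet, 6.01 and 5.84 on the MSG diet, and 5.72 and 5.95 on the control diet. All 4 arrays with trans fat and HFCS lay above the other 4, and the difference was 0.53 (SE 0.13), 1.45-fold higher (adjusted p = 0.0393 in limma). It came mainly from 1 dim probe set, at 3.06 and 2.83, 3.37 and 4.21, 2.11 and 2.20, and 2.21 and 2.00 on the combined, trans-fat/HFCS, MSG and control diets, a difference of 1.24. On all 4 arrays without trans fat and HFCS this probe set lay below the filter (log2 2.43), so it had to differ in order to be kept. The other 2 probe sets differed by 0.12 and 0.24, with overlapping groups.

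The CYP2C8 call rested on that probe set: the difference was 0.18 (adjusted p = 0.455 in limma) with probe sets above the 75th percentile, 0.12 (0.701) with the brightest and 0.24 (0.591) with the median of its probe sets. With no filter it was 0.09 (0.429). The gene missed the threshold with any 1 of the 8 arrays left out (0.46 to 0.60, adjusted p = 0.0538 to 0.141) and without both trans-fat/HFCS arrays (0.40, adjusted p = 0.298).

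CYP2S1, an epithelial enzyme that AHR ligands induce in humans, stood at log2 3.85 and 3.80 on the combined diet, 3.65 and 3.53 on the trans-fat/HFCS diet, 3.61 and 3.51 on the MSG diet, and 3.18 and 3.23 on the control diet. Both control arrays were the lowest and both combined arrays the highest. With trans fat and HFCS the difference was 0.32 (SE 0.11, adjusted p = 0.115 in limma), and with MSG it was 0.30 (SE 0.11, adjusted p = 0.551), so neither passed. With trans fat and HFCS 5 of its 6 probe sets were positive, up to 1.38. The sixth stood at -1.0, with all 4 arrays with trans fat and HFCS below the other 4, so probe sets under this name moved both ways.

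CYP2E1, which oxidises ethanol and other small molecules and is induced by fasting and fat-rich diets in rodents, stood at log2 8.61 and 9.03 on the combined diet, 9.21 and 8.86 on the trans-fat/HFCS diet, 8.71 and 8.77 on the MSG diet, and 8.82 and 8.89 on the control diet. The arrays with and without trans fat and HFCS overlapped. The difference with trans fat and HFCS was 0.13 (SE 0.14), with a 95% interval of -0.19 to 0.45 and an adjusted p of 0.621 in limma. A p that misses the threshold does not show equal levels. Of its 8 probe sets 6 were positive and they ran from -0.99 to 0.65.

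The other 13 genes of family 2 ranged from -0.55 to 0.63 with trans fat and HFCS, and none passed. Among them 3 stood at an unadjusted p under 0.05 and are named after their values were seen. CYP2B6, a target of CAR, was at 0.63 (SE 0.22, adjusted p = 0.116 in limma) and CYP2C19 at 0.46 (SE 0.19, adjusted p = 0.183). CYP2F1, a lung enzyme in humans, was at -0.55 (SE 0.19, adjusted p = 0.112 in limma). All 3 CYP2C19 probe sets were positive (0.32 to 0.66), but the dimmest had a mean of log2 2.45, just above the filter. Its mean on the arrays without trans fat and HFCS therefore lay below the filter. It was kept only through the arrays where it was higher, so nothing is read from the CYP2C19 value. The CYP2B6 values of 3.96 and 3.16 on the combined diet, 3.96 and 3.79 on the trans-fat/HFCS diet, 2.98 and 2.92 on the MSG diet and 2.83 and 3.62 on the control diet overlapped by 1 array on each side.

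Family 3 is the single subfamily CYP3A, the main drug oxidases of human liver and targets of PXR. None of its 4 genes passed in any comparison. CYP3A4 stood at log2 6.91 and 6.96 on the combined diet, 7.39 and 7.16 on the trans-fat/HFCS diet, 7.14 and 6.95 on the MSG diet, and 7.33 and 7.16 on the control diet. With trans fat and HFCS the difference was -0.04 (SE 0.12, 95% interval -0.31 to 0.24), and with MSG it was -0.27 (SE 0.12, 95% interval -0.55 to 0.00, adjusted p = 0.634 in limma). On each base diet both arrays with MSG lay below both arrays without it, by as little as 7.14 for MSG replicate 1 beside 7.16 for control replicate 2.

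CYP3A5, a close relative of CYP3A4 in humans, stood at 2.90 and 2.97 on the combined diet, 2.55 and 2.97 on the trans-fat/HFCS diet, 2.95 and 3.29 on the MSG diet, and 3.15 and 3.06 on the control diet. Its difference with trans fat and HFCS was -0.27 (SE 0.14, adjusted p = 0.285 in limma), and all 3 probe sets were negative (-0.44 to -0.05). CYP3A7, the fetal liver form in humans, stood at 5.21 and 5.42, 5.06 and 5.44, 5.88 and 4.95, and 5.93 and 5.16 on the combined, trans-fat/HFCS, MSG and control diets. Its replicates on the MSG and control diets lay farther apart than the diets, and the difference was -0.20 (SE 0.24). CYP3A43, whose role in humans is minor, stood at 5.37 and 4.91 on the combined diet, 4.96 and 4.99 on the trans-fat/HFCS diet, 5.21 and 4.51 on the MSG diet, and 5.07 and 5.23 on the control diet, a difference of 0.05 (SE 0.18). Its 12 probe sets ran from -1.45 to 0.80 and those of CYP3A7 from -1.79 to 0.63, so probe sets under 1 name moved both ways.

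Family 4 holds the fatty acid hydroxylases. CYP4Z1, a mammary fatty acid hydroxylase in humans, differed the most of all 35 genes. It stood at log2 4.96 and 5.11 on the combined diet, 5.50 and 5.35 on the trans-fat/HFCS diet, 4.54 and 4.31 on the MSG diet, and 3.78 and 4.14 on the control diet. In this gene value the diets were ordered without overlap, trans-fat/HFCS highest, then combined, MSG and control. The order did not hold on each of its 3 probe sets, whose MSG differences ran from -0.84 to 0.89. With trans fat and HFCS the difference was 1.04 (SE 0.13), 2.05-fold higher (adjusted p = 0.00368 in limma). The trans-fat/HFCS diet stood 1.46 above control (SE 0.19, adjusted p = 0.00791) and the combined diet 1.07 above control (SE 0.19, adjusted p = 0.0378). In these 2 comparisons CYP4Z1 was the only member called, against 1.46% and 0.575% of all genes called higher. In the test of any difference among the 4 diets, which called 3.2% of all genes, it was also the only member (adjusted p = 0.0137). Since both comparisons use the same control arrays, they are not independent.

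The CYP4Z1 main difference passed with each single array left out (0.95 to 1.13), but not with the median of its probe sets (1.02, adjusted p = 0.0672 in limma) nor on leaving out both trans-fat/HFCS arrays: the combined diet then stood 0.61 above the MSG diet (adjusted p = 0.171). The difference of the combined diet from control lost its call with any 1 of the 8 arrays left out (0.90 to 1.25, adjusted p = 0.0541 to 0.251), without both trans-fat/HFCS arrays (adjusted p = 0.0541) and with the replicate number as a block (adjusted p = 0.0689). That of the trans-fat/HFCS diet lost it without control replicate 1 (1.28, adjusted p = 0.0751) or trans-fat/HFCS replicate 1 (1.38, adjusted p = 0.0547), and with the median of its probe sets (1.54, adjusted p = 0.0912). The gene is named for the human array, and the cat transcript that its probe sets read was not identified here.

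CYP4F22, a hydroxylase of very long fatty acids of the skin barrier in humans, stood at log2 4.07 and 3.90 on the combined diet, 3.95 and 4.18 on the trans-fat/HFCS diet, 4.01 and 3.73 on the MSG diet, and 3.43 and 3.41 on the control diet. Both control arrays lay below the 6 others. The difference with trans fat and HFCS was 0.38 (SE 0.13), which missed the threshold (adjusted p = 0.109 in limma), and that of the MSG diet from control was 0.45 (SE 0.18, adjusted p = 0.599). Its 8 probe sets ran from -0.06 to 1.22 with trans fat and HFCS (median 0.26). With against without MSG they ran from -0.29 to 1.43 (median 0.0). Both highest values came from 1 probe set, given below, on which the control arrays were far the lowest, so the gene pattern leans on it. CYP4X1, an enzyme of brain and other tissues that oxidises anandamide, likewise had its 2 lowest values on the control arrays, and stood at 3.51 and 3.47 on the combined diet, 3.25 and 3.30 on the trans-fat/HFCS diet, 3.44 and 3.62 on the MSG diet, and 2.55 and 3.16 on the control diet. Its largest difference from control was that of the MSG diet, at 0.68 (SE 0.21, adjusted p = 0.428).

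CYP4A22, a fatty acid omega-hydroxylase of a subfamily controlled by PPARA, stood at log2 7.80 and 7.87 on the combined diet, 7.71 and 7.55 on the trans-fat/HFCS diet, 7.35 and 7.71 on the MSG diet, and 7.41 and 7.15 on the control diet. MSG replicate 2 lay above trans-fat/HFCS replicate 2, and the difference of 0.33 (SE 0.13) missed the threshold (adjusted p = 0.173 in limma). Its relative CYP4A11, outside the set, differed by 0.11 (SE 0.23, adjusted p = 0.814). CYP4F2, which hydroxylates leukotrienes and vitamin K in humans, stood at 6.39 and 5.70, 6.12 and 5.73, 6.09 and 6.07, and 5.40 and 6.09 on the combined, trans-fat/HFCS, MSG and control diets. Replicates of the combined, trans-fat/HFCS and control diets lay farther apart than the means of the diets, and the difference was 0.07 (SE 0.21). The other 6 genes of the family ranged from -0.23 to 0.15 and none passed.

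**Figure D3:**
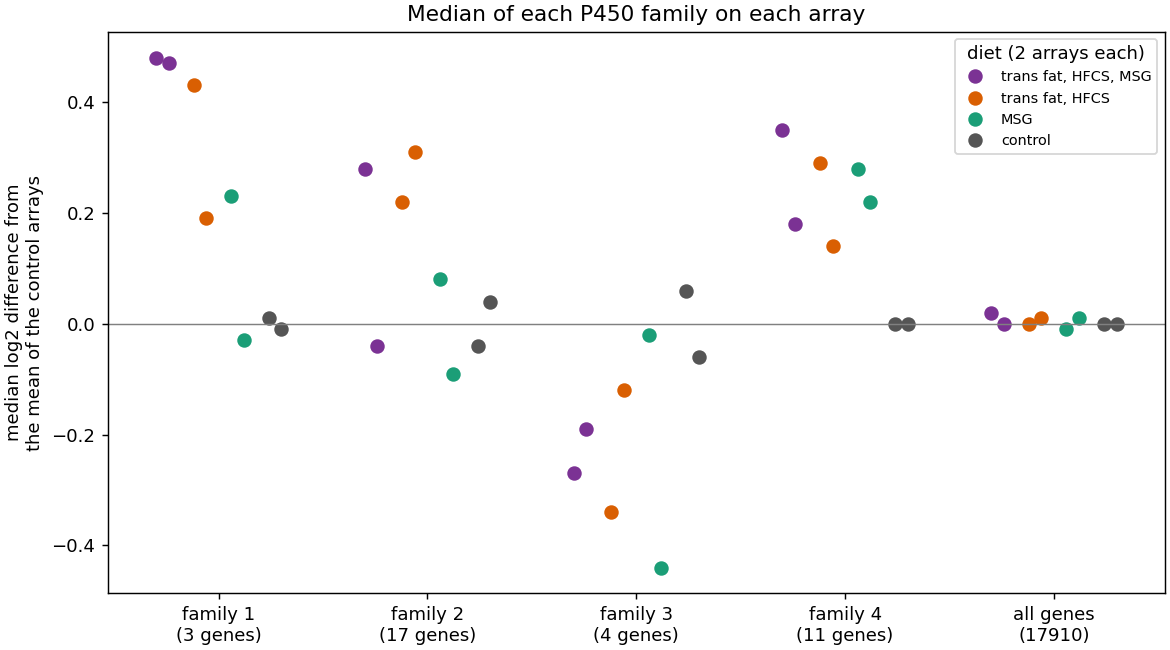
Median over the measured genes of each P450 family of the log2 difference from the mean of the 2 control arrays, for each array (points, coloured by diet), with all 17910 genes at the right. The family 1 medians lie at 0.48 and 0.47 on the combined arrays and the all-gene medians stay within 0.02 of 0.

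By array, the family 1 median difference from the control mean was 0.48 and 0.47 on the combined diet, 0.43 and 0.19 on the trans-fat/HFCS diet, 0.23 and -0.03 on the MSG diet, and 0.01 and -0.01 on the control diet. In family 2 it was 0.28 and -0.04, 0.22 and 0.31, 0.08 and -0.09, and -0.04 and 0.04 in the same order of diets. In family 1, MSG replicate 1 lay above trans-fat/HFCS replicate 2, and in family 2, combined replicate 2 lay below MSG replicate 1. In family 3 the values were -0.27 and -0.19, -0.34 and -0.12, -0.02 and -0.44, and 0.06 and -0.06. In family 4 they were 0.35 and 0.18, 0.29 and 0.14, 0.28 and 0.22, and 0.00 and 0.00. In family 4 all 6 arrays of the other diets lay above both control arrays, and in families 1, 2 and 3 at least 1 of them lay level with or below a control array. Each gene was set against its own control mean, so the 2 control values mirror each other around 0 by construction. They are therefore not 2 separate references, and no test was run on these medians.

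The second comparison set the 4 arrays with MSG (combined and MSG diets) against the 4 without (trans-fat/HFCS and control diets). No member passed limma's test at an adjusted p under 0.05, where 0.329% of all genes did, and 2 of 35 stood at an unadjusted p under 0.05 (CYP2S1 at 0.30 and CYP4X1 at 0.45), against 7.91% of all genes. The members' median was 0.06, beside 0.00 for all genes, and they ranged from -0.36 to 0.45. By family the medians were 0.10, 0.02, -0.05 and 0.14 for families 1 to 4. For the members called with trans fat and HFCS, the MSG difference was 0.26 (95% interval -0.02 to 0.53) for CYP1A1, 0.06 (-0.26 to 0.39) for CYP2A7, -0.04 (-0.32 to 0.25) for CYP2C8 and 0.04 (-0.26 to 0.34) for CYP4Z1. The CYP4Z1 value averages 3 probe sets that moved both ways with MSG, from -0.84 to 0.89. Of the skeletal muscle markers, 8 of 14 were lower in this comparison, since the trans-fat/HFCS arrays lie on the side without MSG.

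The MSG diet against control called no member in limma, where 0.296% of all genes passed, and 3 of 35 stood at an unadjusted p under 0.05 (CYP4F22, CYP4X1 and CYP4Z1), against 7.64% of all genes. All 11 measured genes of family 4 were positive, from 0.03 to 0.68 with a median of 0.25, beside 0.00 for all genes and 50.6% of all genes positive. The median was 0.13 without control replicate 2 and ran from 0.07 (brightest probe set) to 0.5 (median of probe sets) over the alternatives. These 11 differences share 2 control arrays, and CYP4X1 was lower on control replicate 1 than on any other array. CYP4Z1 stood 0.46 above control (SE 0.19, adjusted p = 0.601). This value averages 3 probe sets that disagreed: their differences in the second comparison, with against without MSG, ran from -0.84 to 0.89.

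The interaction is the difference between the combined and trans-fat/HFCS diets less that between the MSG and control diets. No member passed it in limma (0.151% of all genes did), and 3 of 35 stood at an unadjusted p under 0.05, against 9.07% of all genes. CYP4Z1 was at -0.85 (SE 0.27, adjusted p = 0.405): its gene value on the combined diet lay below the trans-fat/HFCS diet, whereas on the MSG diet it lay above control. All 3 of its probe sets were negative (-1.05 to -0.7), but on 1 of them, given below, the combined diet had the higher mean. The other 2 genes, named after their values were seen, were CYP2C18 at 0.96 (SE 0.32, adjusted p = 0.432) and the vitamin D hydroxylase CYP2R1 at 0.70 (SE 0.29, adjusted p = 0.532). With 2 arrays per diet an interaction has a standard error 2 times that of a main difference, and the fit found few of the smaller simulated interactions, so the lack of calls says little.

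In the fit to single probe sets, 1 of 160 passed with trans fat and HFCS and was higher, against 1.45% of all 111624 kept probe sets. It was a CYP4Z1 probe set (7901290), at log2 6.76 and 6.37 on the combined diet, 6.38 and 6.03 on the trans-fat/HFCS diet, 5.60 and 5.35 on the MSG diet, and 4.04 and 4.09 on the control diet. It differed by 1.62 (SE 0.20, adjusted p = 0.0143 in limma), and the other 2 CYP4Z1 probe sets by 0.89 and 0.60. On this probe set the combined diet had a higher mean than the trans-fat/HFCS diet, unlike in the gene value. Of the 160, 22 had all 4 arrays with trans fat and HFCS above the other 4, where 5.87% of all probe sets did, and 4 had them below, where 5.08% did. The 22 hold the dim CYP2C8 probe set, from which nothing is read. They also hold 4 of CYP1A1, 3 of CYP1A2 and 3 of CYP2A7, and probe sets of 1 gene are not separate members. By gene it was 4 of 35, beside 8.29% of all genes, so nothing is read from the count of 22. No member passed with MSG (0.151% of all did), with 14 of 160 at an unadjusted p under 0.05 against 6.80% of all. None passed the interaction (0.0618% of all did), with 9 of 160 at an unadjusted p under 0.05 against 7.83% of all. In simulated data, where few probe sets were given a change, the fit to single probe sets recovered none of them. On the real arrays it called 1620 higher with trans fat and HFCS, so the simulation does not measure its power here. The lack of calls there says little about these members.

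The test of any difference among the diets called 2 of the 160 probe sets, against 1.02% of all: the CYP4Z1 probe set above (adjusted p = 0.0383 in limma) and a CYP4F22 probe set (8026430, adjusted p = 0.0473). The CYP4F22 probe set stood at log2 5.45 and 5.19 on the combined diet, 4.80 and 4.67 on the trans-fat/HFCS diet, 5.19 and 4.69 on the MSG diet, and 2.38 and 2.97 on the control diet. The control arrays alone were near the level of the filter. The other 7 CYP4F22 probe sets ran from -0.06 to 0.95 with trans fat and HFCS.

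**Figure D4:**
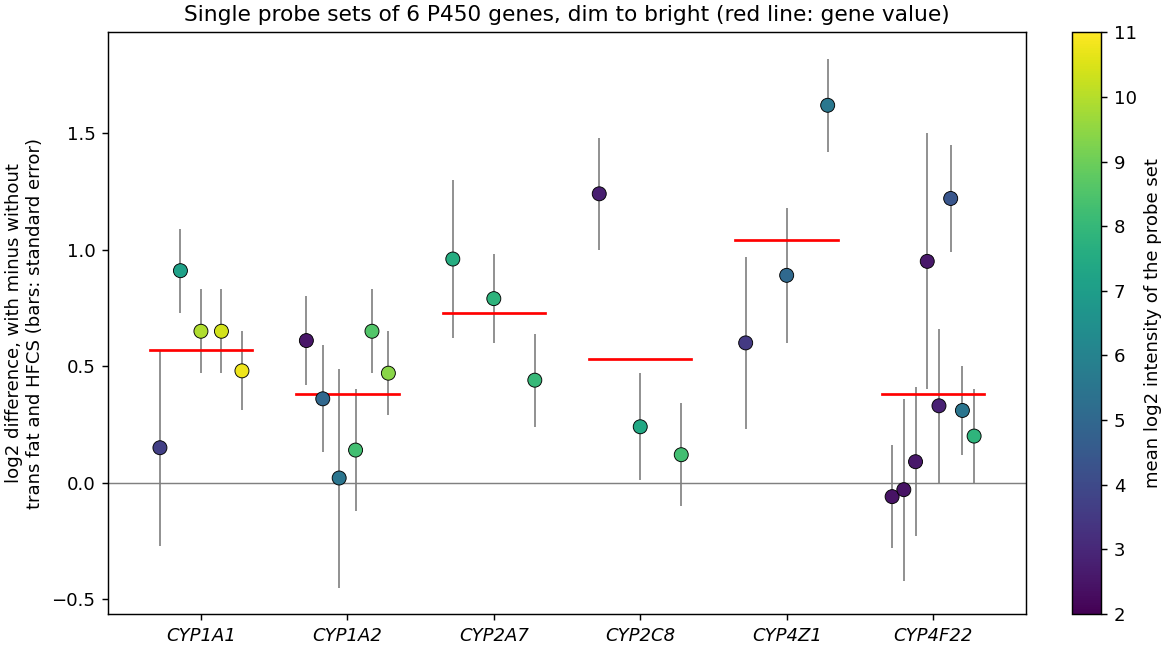
Log2 difference with minus without trans fat and HFCS (4 arrays each) of every kept probe set of 6 P450 genes, ordered from dim to bright within a gene, with standard errors, coloured by mean log2 intensity; red lines are gene values. CYP1A1 and CYP2A7 have all probe sets above 0, and CYP2C8 has 1 dim probe set at 1.24 above the others at 0.12 and 0.24.

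Probe sets that name several genes were read apart. For the CYP2A genes there were 21, of which 19 were kept, and all 19 had a positive difference with trans fat and HFCS. Their mean was log2 9.35 and 8.89 on the combined diet, 8.84 and 8.88 on the trans-fat/HFCS diet, 8.55 and 8.45 on the MSG diet, and 8.54 and 8.57 on the control diet, a difference of 0.46. The 4 arrays with trans fat and HFCS lay above the other 4, as they did for CYP2A7. The 19 share their gene names and are not replicates of each other, and no test was run on them. The kept probe set shared by CYP2C8 and CYP2C19 stood at 9.06 and 8.93, 9.11 and 9.04, 8.74 and 9.09, and 8.65 and 8.67 on the combined, trans-fat/HFCS, MSG and control diets. MSG replicate 2 reached the level of the arrays with trans fat and HFCS, and the difference was 0.25. Probe sets shared by CYP2D6 and CYP2D7P1 (2 kept), by CYP3A5 and its pseudogene CYP3A5P2 (6 kept) and by CYP2E1 and SYCE1 (1 kept) differed by 0.34, 0.08 and 0.35 with overlapping groups.

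The genes that serve or control these enzymes were read in 4 lists. Among 15 measured receptors and factors, 2 passed with trans fat and HFCS: NR0B2, a repressor induced by bile acids, was higher by 0.56 (adjusted p = 0.0303 in limma), and the hepatocyte factor ONECUT1 was lower by 0.48 (log2 -0.48, adjusted p = 0.0481). AHR, whose target is CYP1A1, stood at -0.02 (adjusted p = 0.947 in limma), and its activity was not measured. Among 18 genes of electron supply and haem, ALAS1, the rate-limiting enzyme of haem synthesis, was the only one to pass. It stood at log2 8.15 and 8.01 on the combined diet, 8.20 and 8.47 on the trans-fat/HFCS diet, 7.59 and 7.68 on the MSG diet, and 7.43 and 7.23 on the control diet, 1.65-fold higher with trans fat and HFCS (log2 0.72, SE 0.12, adjusted p = 0.0125). The reductase POR was at 0.22 (SE 0.11) and did not pass (adjusted p = 0.274).

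Among 23 conjugation and other drug enzymes, the glucuronosyltransferase UGT2A3 alone passed, lower by 0.82 (log2 -0.82, adjusted p = 0.0112 in limma). The list of P450 genes outside the 4 families was chosen with earlier results of these data known and does not hold every such gene on the array. Its count beside the share of all genes is therefore no test of the list. Of its 18 measured genes, 4 passed and all were lower, where 3.22% of all genes were called lower. CYP7A1 stood at -1.57 and CYP7B1 at -0.73, both of bile acid synthesis. The retinoic acid hydroxylase CYP26A1 was at -0.93 and CYP51A1 of cholesterol synthesis at -0.84 (adjusted p of the 4 between 0.000396 and 0.0235 in limma). In the MSG comparison CYP7A1 was higher by 0.85 (adjusted p = 0.0319 in limma). The list medians with trans fat and HFCS were -0.12 for receptors and factors and 0.06 for electron and haem supply. They were 0.05 for conjugation and -0.15 for the other P450 genes, beside 0.02 for all genes. With trans fat and HFCS the passing P450 genes of families 1 to 4 were higher, counting CYP2C8, from which nothing is read. Those passing in the list outside were lower, but for CYP26A1 and CYP51A1 the arrays with and without trans fat and HFCS overlapped. CYP51A1 on the combined diet differed from control by -0.20 (adjusted p = 0.739 in limma). The difference between these sets was not tested.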

How the data were processed

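RNA from snap-frozen liver was hybridised to 8 arrays, 2 for each of 4 diets, all 8 used here. The authors deposited a normalized intensity for each exon-level probe set. Per the submitters' processing notes, which give no version, role or order, the tools were GCRMA and Partek and the build was hg19 (human). The highest intensity per array (21603 to 22966) shows a linear scale, so log2 was taken here. The number of arrays limits the precision, and cat sequences that differ from the human probes lower the signal. No genome sequence was used here, so positions are not printed.

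Probe sets above the median mean (log2 2.43, intensity 5.38) with 1 gene in the platform annotation, 111624 in number, were averaged into 17910 genes. The cat gene table (assembly F.catus_Fca126_mat1.0) served for names only. A 4-group model was fitted in R 4.3.3 by the lmFit and eBayes steps of limma 3.58.1 (4 residual degrees of freedom, prior 5.01) to all genes, and separately to single probe sets (prior 2.69), two-sided, with Benjamini-Hochberg adjustment over all features and a threshold of 0.05. Main differences average 2 diet pairs. On simulated data the gene fit recovered 94% of 2-fold and 100% of 4-fold main differences with trans fat and HFCS. For MSG it recovered 99% and 100%, and for the interaction 13% and 94%. The probe-set fit recovered none of either size. Recovery of differences under 2-fold was not tested. Named genes are every member called in any contrast, and per family the 3 with the smallest F-test p and the 2 with the highest mean; others named after their values were seen are marked so. The members and all gene lists were chosen with earlier results of these data known. Alternatives were other filters, summaries per gene, an offset, quantile normalization, a variance trend, the replicate number as a block and arrays left out.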

Additional observations from a re-analysis of the deposited data

Results flagged for a closer look

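Probe sets that name several genes were not used in the comparisons, and 2 groups of them stood above the control arrays. The 19 kept probe sets that name several CYP2A genes averaged log2 9.35 and 8.89 on the combined diet and 8.84 and 8.88 on the trans-fat/HFCS diet, against 8.55 and 8.45 on the MSG diet and 8.54 and 8.57 on the control diet, and the difference with trans fat and HFCS was 0.46 over the 4 diets. The kept probe set that names both CYP2C8 and CYP2C19 stood at log2 9.06 and 8.93 on the combined diet and 9.11 and 9.04 on the trans-fat/HFCS diet, against 8.74 and 9.09 on the MSG diet and 8.65 and 8.67 on the control diet, with a difference of 0.25. MSG replicate 2 lay within the range of the arrays with trans fat and HFCS.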

How the results depend on the processing

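No P450 gene called changed direction in any alternative run. The 4 genes called with trans fat and HFCS became 2 without the filter, 1 with the median of probe sets and 0 without both trans-fat/HFCS arrays. The share of all genes called, in either direction, fell as well. It was 7.66% in the main fit, 6.22% without the filter, 3.32% with the median and 1.3% without both arrays. Leaving out 1 array gave 1 to 3 calls: 1 without control replicate 1, control replicate 2 or trans-fat/HFCS replicate 2, 3 without combined replicate 2 (CYP2A7, CYP2B6 and CYP4Z1), and 2 without any of the other 4. With the brightest probe set the 4 calls were CYP1A1, CYP2C18, CYP2S1 and CYP4Z1, and with the 75th percentile filter they were CYP1A1, CYP2A7, CYP4F22 and CYP4Z1. Between the trans-fat/HFCS and control diets, the 1 gene called became 0 with the median, 3 with an offset of 16 and 4 with the variance trend, and 0 to 1 with 1 array left out. For the combined diet against control, 1 became 0 with the median and without both trans-fat/HFCS arrays, 3 with the 75th percentile filter, the offset or the trend, and 0 to 0 with 1 array left out. For any difference among the diets, 1 became 2 with the 75th percentile filter, 3 with the offset or the trend, 0 with the median and without both arrays, and 0 to 1 with 1 array left out. Of probe sets called with trans fat and HFCS, 1 became 4 without the filter, 7 with the 75th percentile filter, 11 with the offset or the trend and 0 without both arrays, and 0 to 1 with 1 array left out, with 1 lower among the 4, the 7 and the 11 of the offset; for any difference, 2 became 7 with the trend, 0 without both arrays, and 0 to 0 with 1 array left out. No member was called for MSG, the interaction or the MSG diet against control in any alternative. For the other counts of this paragraph the share over all features is not given, so they are not read as particular to the members. The cause of these changes was not tested.

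The labels give replicate numbers in every diet. Over all genes, deviations of same-numbered arrays correlated between -0.056 and 0.043 over 6 diet pairs, so no pairing was used in the main fit. A link between same-numbered arrays that touches few genes would not show in this check. As a block, the replicate number gave 3 genes with trans fat and HFCS, losing CYP2C8 (adjusted p = 0.062 in limma), 0 for the combined diet against control, 1 between the trans-fat/HFCS and control diets, and 0 probe sets for any difference. With the block 5.73% of all genes passed with trans fat and HFCS, beside 7.66% in the main fit. Family medians with trans fat and HFCS kept their sign in every alternative in families 1, 2 and 4 (0.09 to 0.58, 0.04 to 0.24, and 0.05 to 0.26). In family 3 the median ran from -0.31 to 0.02, the last without MSG replicate 1. The family 4 median of the MSG diet against control ran from 0.07 to 0.5. Medians for MSG changed sign in families 1 to 3.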

Other observations

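A CYP2C18 probe set, chosen after its values were seen, stood at log2 7.09 and 7.20 on the combined diet, 5.33 and 5.21 on the trans-fat/HFCS diet, 6.98 and 6.16 on the MSG diet, and 7.14 and 7.26 on the control diet. It was lowest on both trans-fat/HFCS arrays, those on which skeletal muscle genes were high. Its interaction was 2.51 (SE 0.47) and did not pass in the fit to all probe sets (adjusted p = 0.294 in limma). The brightest CYP2C18 probe set moved the other way with trans fat and HFCS, at 7.70 and 7.74 on the combined diet and 7.69 and 7.81 on the trans-fat/HFCS diet, against 6.94 and 7.11 on the MSG diet and 7.28 and 7.12 on the control diet, a difference of 0.62 (SE 0.18, adjusted p = 0.148).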
